A study of Homo sapiens with 23 samples.

Results

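The genes described here were 10 members of the Notch pathway: the receptors NOTCH1, NOTCH2 and NOTCH3, the ligands JAG1, JAG2 and DLL1, and the HES and HEY transcription factors HES1, HES4, HEY1 and HEY2. They were taken by symbol from a table of 35438 genes. The cells were WM989 A6-G3, a human melanoma cell line that had passed through a single cell before the experiment. There were 3 libraries of untreated cells that had seen no drug and 20 of 7 resistant clones, each grown out of 1 colony of the same line. Clones 7, 8 and 9 had been raised in and were kept in 1 µM vemurafenib, a BRAF inhibitor. Clones 10 to 13 had been raised in and were kept in 250 nM dabrafenib, another BRAF inhibitor, together with 2.5 nM trametinib, a MEK inhibitor. Each group had 3 libraries except clone 11, which had 2 (replicates 2 and 3), and the labels give the genotype of all groups as WT. Because the drug stayed in the medium of every clone and was absent from the untreated cells, an effect of the drug and a property of the resistant clone cannot be told apart. The libraries of a group are labelled biological replicates, with nothing on whether they came from separate cultures, so p-values measure the spread between these libraries, which may be technical.

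Notch receptors are single-pass membrane proteins that bind ligands of the Jagged and Delta-like families on a neighbouring cell. Binding exposes the receptor to cleavage by an ADAM protease and then by gamma-secretase, which frees the intracellular domain to enter the nucleus, where it joins the DNA-binding protein RBPJ and a Mastermind coactivator. HES and HEY genes, which encode basic helix-loop-helix repressors, are the classic targets. In the melanocyte lineage, Notch signalling through HES1 is known to maintain melanocyte stem cells and melanoblasts.

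RBPJ binds DNA with the core TGGGAA. The promoters of HES1, HES4 and HEY2 are shown because HES and HEY genes are the pathway's readout and windows of these 3 were searched. The sequences are the 250 bases before the transcription start, read 5′ to 3′ on the gene's strand, from RefSeq on GRCh38.p14, a later build than the hg19 named in the submitters' notes. Capitals mark TGGGAA, or TTCCCA where the core lay on the opposite strand. HES1 lies at chr3:194135898-194136147 on the plus strand, HES4 at chr1:1000098-1000347 on the minus strand and HEY2 at chr6:125749382-125749631 on the plus strand.
HES1: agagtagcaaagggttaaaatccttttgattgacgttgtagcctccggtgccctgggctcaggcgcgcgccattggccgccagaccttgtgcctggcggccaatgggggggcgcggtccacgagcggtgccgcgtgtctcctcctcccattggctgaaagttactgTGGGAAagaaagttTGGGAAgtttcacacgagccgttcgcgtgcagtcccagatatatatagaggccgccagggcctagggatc
HES4: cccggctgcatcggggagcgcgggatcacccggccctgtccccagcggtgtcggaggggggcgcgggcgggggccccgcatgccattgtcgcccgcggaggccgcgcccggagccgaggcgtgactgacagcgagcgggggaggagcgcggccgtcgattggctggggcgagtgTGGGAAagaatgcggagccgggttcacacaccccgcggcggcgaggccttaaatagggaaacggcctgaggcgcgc
HEY2: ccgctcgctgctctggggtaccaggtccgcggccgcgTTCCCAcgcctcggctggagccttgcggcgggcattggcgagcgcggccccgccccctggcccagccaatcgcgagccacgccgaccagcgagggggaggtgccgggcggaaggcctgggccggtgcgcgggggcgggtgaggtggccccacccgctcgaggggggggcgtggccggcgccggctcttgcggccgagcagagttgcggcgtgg

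HES1 had 2 cores on its own strand, 8 bases apart, at -84 to -79 and at -70 to -65 from the start. HES4 had 1 core on its own strand at -76 to -71, and HEY2 had 1 on the opposite strand at -213 to -208. The windows of NOTCH1, NOTCH2, NOTCH3, JAG1 and JAG2 held no TGGGAA on either strand. Windows were searched for 8 of the 10 members, all but HEY1 and DLL1. Any member window on chromosome 8 was left out of this search, so it does not show which members lack a window in RefSeq. The count over all windows below had no such exclusion. Of 35116 windows of the same length, 20.8% held at least 1 match on either strand and 2.9% held at least 2. A same-strand pair with the spacing of HES1 was found in 5 windows (0.0142%), that of HES1 included. The spacing was taken from HES1 itself, so the low share is no measure of how unusual HES1 is. HES1 also held 3 matches of CACNAG, the N box bound by HES proteins, searched on both strands. Of all windows, 32% held at least 1 CACNAG and 6.32% at least 2. A match is a description of the letters and was not tested as a site.

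The labelled cell type was checked against its markers. All 7 melanocyte markers (MITF, SOX10, PMEL, MLANA, TYR, DCT and TYRP1) passed the filter and were lower in the mean of the clones. Their summed level was 11970 to 12330 TPM in untreated libraries and 22.1 to 467 TPM in clone libraries. The clones are thus melanoma cells by their origin and by this sum have little of the melanocyte programme. PMEL dominated the sum in untreated cells, with 9864 TPM. MITF remained at clone means of 15.5 to 51.3 TPM, against 123 TPM in untreated cells. Of the markers tested for keratinocytes (3 of 5 listed), endothelium (2 of 6) and leukocytes (1 of 4), 0 were called in the mean of the clones. Single clones had called markers, all higher and low in level: TP63 in clone 8 (3.80 TPM) and KRT14 in clone 11 (1.86 TPM) of keratinocytes, PTPRC of leukocytes in clone 8 (4.12 TPM against 1.24 TPM in untreated cells), and endothelial markers in clones 7 (1), 12 (1) and 13 (2). The summed endothelial level was 0.598 to 0.803 TPM in untreated libraries and at most 5.24 TPM in a clone library. Among keratinocyte markers KRT10 was the highest, at 8.70 TPM in untreated cells, where KRT5, KRT14 and KRT1 were at 0. All 6 fibroblast markers and 3 of 5 smooth muscle markers (ACTA2, CNN1 and DES) were higher. In bulk RNA, fewer cells of a type and less RNA per cell cannot be told apart. Clone 10 replicate 1 stood apart from the other libraries, with 14415 genes above 0 against 18671 to 24039 in the other 22. Clone 8 replicate 3 had the lowest scaling factor (0.743) and the lowest share of mitochondrial genes (6.74%), and it had less NOTCH2, NOTCH3 and JAG1 and more HES1 and HES4 than the other clone 8 libraries. Without it the clone 8 log2 fold changes given below would be 3.56 for NOTCH3, 3.95 for JAG1, 1.36 for HES1 and 1.86 for HES4, all called. The mitochondrial share moved with the main comparison, at 20.6% to 21.2% in untreated libraries and 6.74% to 15.6% in the 20 clone libraries, and its part in the results was not tested.

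Levels below are TPM, transcript levels brought to a fixed total per library, after scaling between libraries. Differences are log2 fold changes of TPM + 1 with their standard error, from limma over 15657 genes, and an effect is called where the Benjamini-Hochberg adjusted p is under 0.05 and the log2 fold change is at least 1 in size. With the 7 clones averaged and set against untreated cells, 5 members were called higher (NOTCH3, JAG1, DLL1, HES1 and HES4) and 3 lower (JAG2, HEY1 and HEY2), where 10.9% of all genes tested were called higher and 7.91% lower. NOTCH1 and NOTCH2 were not called. The SE, p and interval for the mean of the clones, here and below, come from the spread between libraries within groups. They leave out the spread between clones, so they describe these 7 clones and not resistant clones in general. The median log2 fold change was 0.78 over the 10 members and -0.01 over all genes. All 10 passed the filter on low values, but NOTCH3 and DLL1 reached 1 TPM as deposited in 0 of 3 untreated libraries and in 17 of 20 clone libraries, HEY2 reached it in 3 of 3 untreated and 0 of 20 clone libraries, and JAG2 in 3 of 3 and 1 of 20. These 4 genes passed the filter only through the group where they were high.

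The number of members called differed from clone to clone. Clone 7 had 4 members higher and 4 lower, against 11.0% and 8.54% of all genes. In clone 8, 5 were higher and 3 lower, against 11.0% and 9.29%. Clone 9 had 4 higher and 3 lower, against 11.5% and 8.29%, and clone 10 had 3 higher and 2 lower, against 11.8% and 10.5%. These shares of all genes were nearly the same in every clone. The members with an unadjusted limma p under 0.05 numbered 7 to 9 in each clone, so the members' counts differed in part through the fold minimum. Clone 11 had 4 higher and 4 lower, against 11.7% and 9.53%. Clone 12 had 3 higher and 4 lower, against 11.5% and 8.02%, and clone 13 had 1 higher and 3 lower, against 12.3% and 8.35%. Clone 13 was the clone with the fewest called members, with JAG1 alone higher, while DLL1 (0.92) and HES4 (0.86) were under the fold minimum. With 1 library left out its count ran from 3 to 5, and that of clone 10 from 4 to 6. All 7 comparisons share the same 3 untreated libraries. With the values as deposited, without scaling, the share of calls that were higher moved from 52.8% to 68.2% in clone 10, from 55.1% to 70.6% in clone 11, from 58.9% to 69.2% in clone 12 and from 59.5% to 70% in clone 13.

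**Figure D1:**
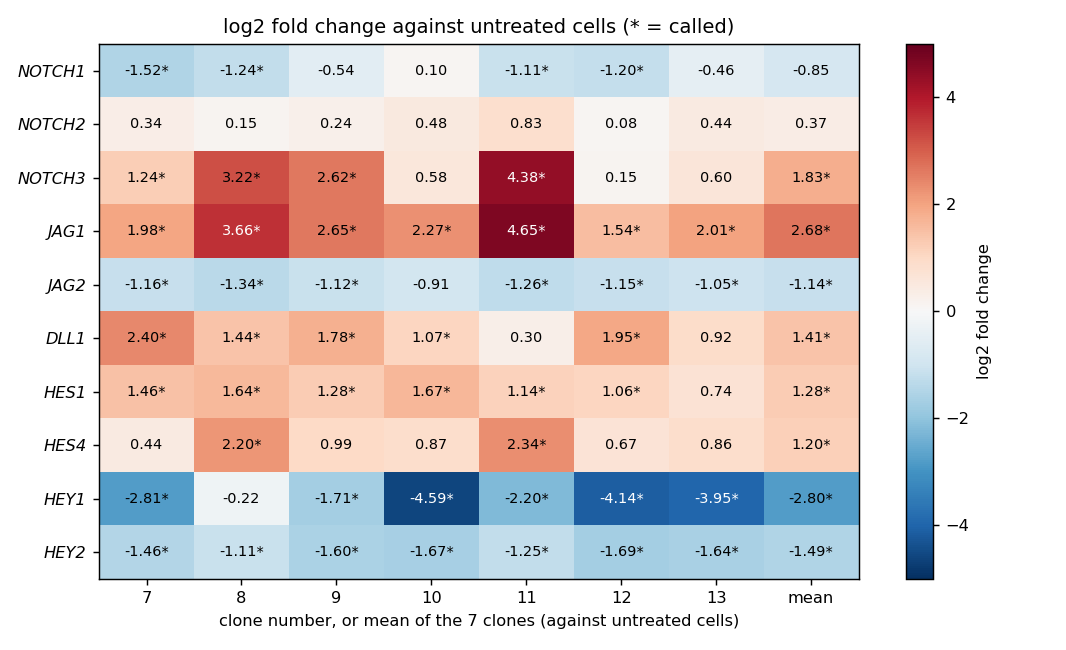
Log2 fold change of each of the 10 genes in each clone against untreated cells, on the log2(TPM + 1) scale, printed in each cell, with a star where called and the mean of the clones in the last column. JAG1 was called higher and HEY2 lower in all 7 clones, while NOTCH2 was called in none.

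Among the receptors, NOTCH3 rose, NOTCH1 fell in 4 clones and NOTCH2 was called in no clone. NOTCH2 was the most abundant receptor in every group. NOTCH3, the receptor of smooth muscle cells and pericytes in normal tissue, measured 0.409, 0.756 and 0.779 TPM in the untreated libraries. In clone 11 it measured 27.2 and 40.0 TPM, and in clone 8 it measured 18.7, 17.7 and 8.67 TPM. These 2 clones lay far above every untreated library, and clone 9 followed with 10.1, 7.22 and 10.1 TPM. Clone 7 held 4.31, 2.16 and 2.46 TPM. Clone 12 overlapped the untreated range, at 0.240, 0.712 and 1.85 TPM. Clones 10 and 13 began just above it, at 0.898, 1.03 and 2.86 TPM and at 1.14, 0.842 and 2.88 TPM. NOTCH3 was called higher in clones 7, 8, 9 and 11, by 1.24 (SE 0.36, limma adjusted p = 0.00775), 3.22 (adjusted p = 3.96e-07), 2.62 (adjusted p = 5.45e-06) and 4.38 (SE 0.40, adjusted p = 2.85e-08). The log2 fold changes in clones 10, 12 and 13 were 0.58, 0.15 and 0.60, none called.

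The 4 clones with NOTCH3 called higher also had the highest mean levels of ACTA2, smooth muscle actin, and of CNN1, calponin. For CNN1, clone 9 (4.06 to 5.10 TPM) overlapped clone 13 (3.00 to 4.39 TPM). Without a NOTCH3 call, ACTA2 was still called higher in clones 12 (1.54) and 13 (2.54), and CNN1 in clone 13 (1.22). The summed level of the 5 smooth muscle markers was 1311 to 1572 TPM in clone 7, 2825 to 3466 TPM in clone 8, 461 to 521 TPM in clone 9 and 4455 to 4794 TPM in clone 11. It was 20.4 to 21.1 TPM in untreated libraries and 17.4 to 149 TPM in clones 10, 12 and 13. ACTA2 dominated this sum, with 4402 ± 200 TPM in clone 11 (SD, n = 2). The other 3 markers did not follow the same order: DES was 0.241 TPM in clone 9 and 0.466 TPM in clone 7 against 0.797 TPM in clone 10, MYH11 was lower in clones 7, 8 and 9 than in clone 10, and RGS5 was lowest in clone 9, at 3.57 TPM. The part of the muscle markers in the NOTCH3 result was not tested.

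NOTCH1, the receptor known for activating mutations in T-cell leukaemia, went the other way in part of the clones. It measured 4.44, 4.37 and 4.68 TPM in untreated libraries and 0.873, 0.868 and 1.02 TPM in clone 7. Clone 8 measured 1.69, 1.60 and 0.811 TPM, clone 11 measured 1.31 and 1.79 TPM, and clone 12 measured 0.845, 1.63 and 1.79 TPM. All libraries of these 4 clones lay below every untreated library. After scaling this also held for clones 9 and 13, and so for 17 of 20 clone libraries. As deposited, clone 13 replicate 2 (4.52 TPM) lay above every untreated library. It fell by 1.52 in clone 7 (SE 0.20, limma adjusted p = 4.05e-06), by 1.24 in clone 8, by 1.11 in clone 11 and by 1.20 in clone 12. The call in clone 11 did not hold with the values as deposited (-0.91) or without clone 11 replicate 2 (-0.97). Clones 9 and 13 held 2.79 ± 0.461 and 3.10 ± 1.10 TPM (SD, n = 3), with log2 fold changes of -0.54 and -0.46 that were not called. Clone 10 measured 4.40, 5.94 and 4.46 TPM and overlapped the untreated libraries, with a log2 fold change of 0.10 (adjusted p = 0.703). Over the mean of the clones the log2 fold change was -0.85 (SE 0.15, adjusted p = 9.43e-05), under the fold minimum.

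NOTCH2 measured 20.7, 26.1 and 28.2 TPM in untreated libraries and 16.5 to 50.8 TPM (median 32.9 TPM) in clone libraries. For the mean of the clones its log2 fold change was 0.37 (SE 0.19, limma adjusted p = 0.102), with a 95% interval of -0.02 to 0.76. Its highest group mean was that of clone 11, with 39.8 and 50.8 TPM, a log2 fold change of 0.83 (adjusted p = 0.0187) that was under the fold minimum. That difference passed it with the values as deposited (1.11) and without clone 11 replicate 2 (1.01). NOTCH2NL, a near-identical partial copy of NOTCH2, measured 17.8 TPM in untreated cells and 13.6 to 26.7 TPM in clone means, so the split of reads between both genes is uncertain.

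As a share of the summed TPM of NOTCH1, NOTCH2, NOTCH3 and NOTCH4, NOTCH3 made up 1.96% ± 0.433 in untreated cells (SD, n = 3). It made up 40.7% ± 2.53 in clone 11 (n = 2), 31.7% ± 1.08 in clone 8 and 21.2% ± 0.227 in clone 9. NOTCH2 made up 76.6% ± 2.34 in untreated cells and 55.4% ± 2.06 in clone 11, and it remained the largest share in each group. The summed receptor level was 32.5 TPM in untreated cells, 82.1 TPM in clone 11 and between 30.3 and 47.3 TPM in the other clones.

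**Figure D2:**
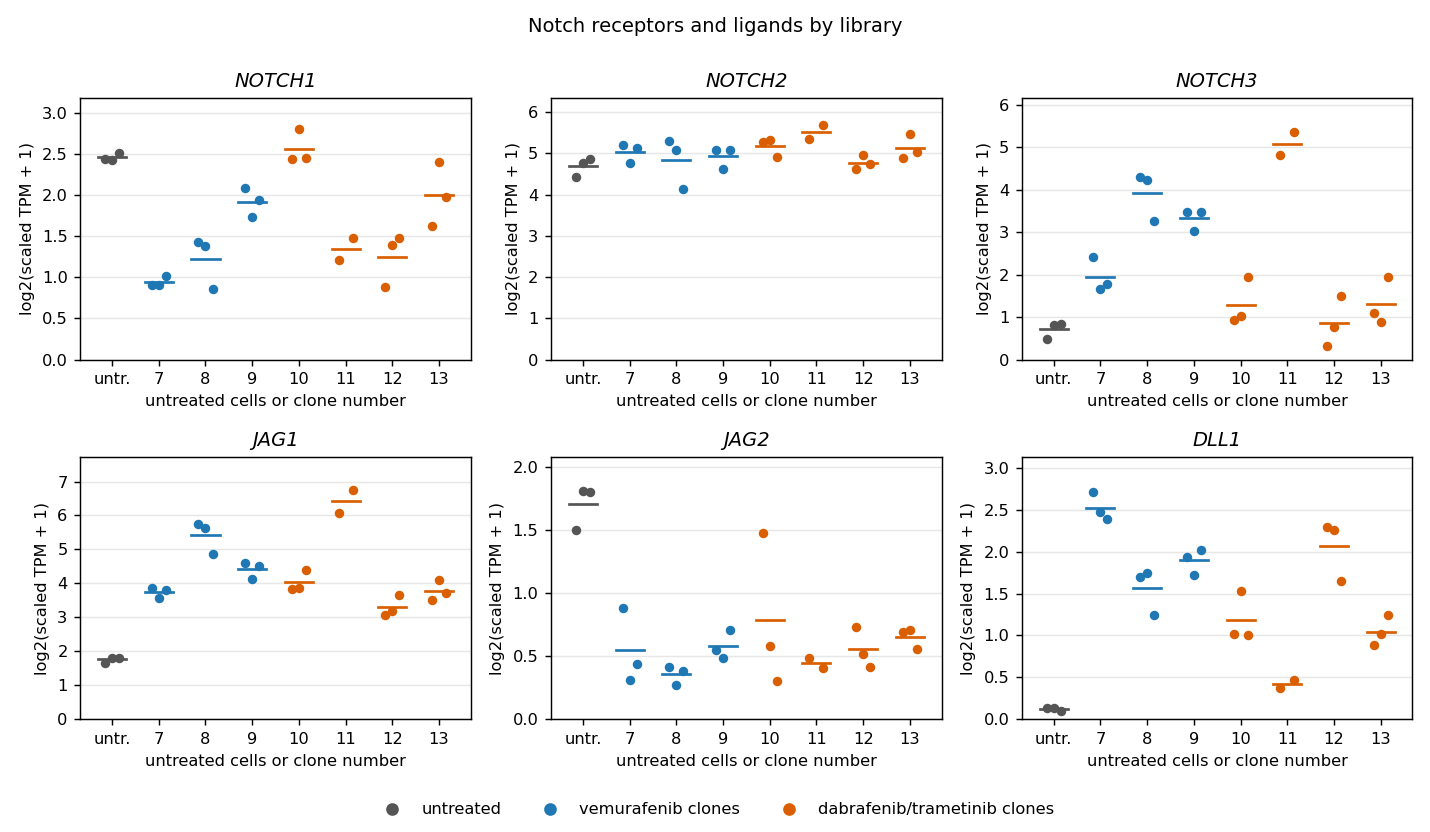
Level of the 3 receptors and 3 ligands in each library (points) by group, as log2(scaled TPM + 1), with a line at the mean log2 value of the group. NOTCH3 and JAG1 were highest in clone 11, with mean scaled TPM of 33.6 and 86.8. After scaling, JAG2 lay below every untreated library in all 20 clone libraries.

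Among the ligands, JAG1 rose in all 7 clones, DLL1 rose in 5 and JAG2 fell in 6. Of all genes tested, 4.87% were called higher in all 7 clones and 4.18% were called lower in all 7. JAG1, a Jagged ligand prominent in vessel walls and many carcinomas, measured 2.16, 2.52 and 2.52 TPM in untreated libraries. It reached 66.3 and 107 TPM in clone 11 and 53.0, 48.9 and 28.4 TPM in clone 8. Clone 9 held 23.1, 16.5 and 22.0 TPM. The other clones held less, with means of 15.6 ± 3.82 TPM in clone 10, 12.9 ± 2.90 TPM in clone 13, 12.5 ± 1.40 TPM in clone 7 and 9.03 ± 2.31 TPM in clone 12 (SD, n = 3 each). Even the lowest clone library, at 7.34 TPM, lay above every untreated library. The log2 fold change ran from 1.54 in clone 12 (limma adjusted p = 2.79e-05) to 4.65 in clone 11 (SE 0.27, adjusted p = 3.55e-11) and was 2.68 (SE 0.18, adjusted p = 2.15e-10) for the mean of the clones.

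DLL1, a Delta-like ligand known for its role in somite formation, was close to absent from untreated cells, at 0.0946, 0.0992 and 0.0665 TPM. It measured 5.55, 4.55 and 4.23 TPM in clone 7 and 3.89, 3.78 and 2.15 TPM in clone 12. These were the highest clones, and the lowest was clone 11, with 0.294 and 0.383 TPM, where JAG1 was highest. The means of clones 9, 8, 10 and 13 were 2.74, 1.99, 1.31 and 1.07 TPM. All 20 clone libraries lay above every untreated library, as they did for 14.5% of all genes tested. DLL1 was called higher in clones 7, 8, 9, 10 and 12, by 2.40 (limma adjusted p = 3.16e-09), 1.44, 1.78, 1.07 and 1.95. The log2 fold change was 0.30 in clone 11 (adjusted p = 0.276) and 0.92 in clone 13 (adjusted p = 0.00045), which was under the fold minimum. Pseudocounts below 1 raise these values because DLL1 was so low: with a pseudocount of 0.1 both were called, at 1.23 in clone 11 and 2.63 in clone 13. Clone 13 was also called with a pseudocount of 0.5 (1.41) and without clone 13 replicate 1 (1.01). The clone 10 call was lost without clone 10 replicate 2 (0.89).

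JAG2, the other Jagged ligand, fell from 1.82, 2.50 and 2.48 TPM in untreated libraries to between 0.205 and 1.78 TPM in clone libraries (median 0.416 TPM). After scaling, all 20 clone libraries lay below every untreated library, which held for 13.3% of all genes. As deposited, clone 10 replicate 1 (2.01 TPM) lay within the untreated range of 1.55 to 2.305 TPM. The log2 fold change was -1.14 for the mean of the clones (SE 0.17, limma adjusted p = 8.41e-06), and it ran from -1.34 in clone 8 to -0.91 in clone 10, the 1 clone not called. The single clone library near the untreated range was clone 10 replicate 1, at 1.78 TPM against 0.497 and 0.233 TPM in replicates 2 and 3. Without it the clone 10 value was -1.25 (adjusted p = 3.77e-06) and called, and without untreated replicate 1 it was -1.02 and called. The call in clone 13 (-1.05) was lost with the values as deposited (-0.93) and, just under the fold minimum, without untreated replicate 2.

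The makeup of the ligand RNA changed with these shifts. DLL3, a Delta-like protein that acts inside the cell and is not known to activate receptors on neighbours, made up 72.4% ± 3.90 of the summed TPM of JAG1, JAG2, DLL1, DLL3 and DLL4 in untreated cells (SD, n = 3), and JAG1 made up 13.8% ± 1.49. In the clones JAG1 made up from 53.1% ± 4.73 in clone 7 to 94.1% ± 1.69 in clone 11. DLL1 made up 20.3% in clone 7 and 20.5% in clone 12. The summed level was 17.5 TPM in untreated cells, 92.0 TPM in clone 11 and 52.3 TPM in clone 8, and between 16.3 and 27.5 TPM in the other 5 clones. JAG1 was the largest share of the ligand RNA in each of the 7 clones.

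Among the transcription factors, HES1 and HES4 were higher and HEY1 and HEY2 lower in the mean of the clones. HES1 measured 60.3, 47.5 and 45.7 TPM in untreated libraries. Clone 7 held 124, 154 and 147 TPM, clone 8 held 127, 136 and 236 TPM, clone 9 held 119, 149 and 109 TPM, and clone 10 held 145, 204 and 147 TPM. All libraries of these 4 clones lay above every untreated library. Clone 11 held 160 and 79.5 TPM, clone 12 held 225, 58.1 and 92.3 TPM, and clone 13 held 120.2, 90.7 and 56.8 TPM. In clones 12 and 13 the lowest library fell within the untreated range, and 18 of 20 clone libraries lay above every untreated one. HES1 was called higher in 6 clones, by 1.06 to 1.67, and its log2 fold change was 0.74 in clone 13 (limma adjusted p = 0.119). For the mean of the clones it was 1.28 (SE 0.29, adjusted p = 0.000883, 95% interval 0.68 to 1.89).

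The HES1 calls in clones 11 and 12 changed with the libraries in the fit. In clone 11 the value was 1.14 (limma adjusted p = 0.0369) and fell to 0.64 (adjusted p = 0.401) without clone 11 replicate 2. In clone 12 it was 1.06 (adjusted p = 0.0284) and fell to 0.52 (adjusted p = 0.224) without clone 12 replicate 1. Both calls were also lost, at folds that moved little, without untreated replicate 2 (1.09 and 1.01, adjusted p = 0.0829 and 0.0751) and without untreated replicate 3 (1.06 and 0.98, adjusted p = 0.0896 and 0.0822). With no filter on low values they were lost at the same folds (adjusted p = 0.0754 and 0.0611), as was the clone 12 call when the fit held the libraries of that clone and untreated cells alone (adjusted p = 0.0877). The calls in clones 7, 8, 9 and 10 held under every alternative run.

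HES4, a HES gene that the mouse genome lacks, measured 12.1, 10.7 and 10.3 TPM in untreated libraries. It measured 58.9 and 60.5 TPM in clone 11 and 38.1, 46.8 and 88.6 TPM in clone 8. These 2 clones were called, at 2.34 (limma adjusted p = 7.62e-07) and 2.20 (adjusted p = 3.60e-07). The other 5 clones held means of 15.3 to 23.0 TPM, with log2 fold changes of 0.44 in clone 7, 0.67 in clone 12, 0.86 in clone 13, 0.87 in clone 10 and 0.99 in clone 9, all under the fold minimum. With the values as deposited, clones 9, 10 and 13 were called as well, at 1.13, 1.15 and 1.05. Clone 9 also passed, at 1.02 to 1.08, with pseudocounts of 0.1 and 0.5 and without untreated replicate 1, clone 9 replicate 1 or clone 9 replicate 3. Every clone library, the lowest at 12.2 TPM, lay above every untreated library, and the log2 fold change for the mean of the clones was 1.20 (SE 0.18, adjusted p = 1.79e-05).

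HEY1, a HEY repressor known in vessels and bone, measured 54.1, 52.8 and 53.5 TPM in untreated libraries. Clone 8 held nearly as much, at 47.5, 46.2 and 43.3 TPM. Clone 9 followed with 16.8, 15.2 and 15.1 TPM, clone 11 with 7.89 and 14.9 TPM, and clone 7 with 7.08, 6.27 and 6.93 TPM. The remaining clones held the least: 2.89, 2.15 and 1.38 TPM in clone 12, 2.67, 2.55 and 2.39 TPM in clone 13, and 5.27, 0.123 and 0.650 TPM in clone 10. HEY1 fell in 6 clones, by 1.71 in clone 9 (limma adjusted p = 0.0013) to 4.59 in clone 10 (adjusted p = 8.49e-09), and its log2 fold change in clone 8 was -0.22 (adjusted p = 0.67, 95% interval -1.04 to 0.59). After scaling, the 3 libraries of clone 8 all lay below the 3 untreated ones, by little. As deposited, clone 8 replicates 1 and 2 (49.3 and 46.3 TPM) lay within the untreated range of 46.2 to 49.7 TPM.

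Within clone 10, replicate 1 had the most HEY1 and also the highest melanocyte marker sum, 378 TPM, or 3.12% of the untreated mean, against 0.973% and 0.610% in the other 2 libraries. Without that library the clone 10 value was -5.31 (limma adjusted p = 5.11e-13). In clones 12 and 13, replicate 1 also had the most HEY1 (2.89 and 2.67 TPM) and the highest marker sum (467 and 243 TPM). The part of melanocyte-like RNA in these HEY1 levels was not tested. HEY2, a HEY repressor known in the heart, was low in untreated cells, at 2.98, 2.25 and 2.26 TPM. It did not exceed 0.656 TPM in any clone library, and clone 10 replicate 1 was at 0. HEY2 was called lower in all 7 clones, by 1.11 in clone 8 to 1.69 in clone 12, each with an adjusted p of 9.78e-08 or lower, and by 1.49 in their mean (SE 0.08, adjusted p = 1.42e-11). For both genes clone 8 was the clone nearest to untreated cells.

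**Figure D3:**
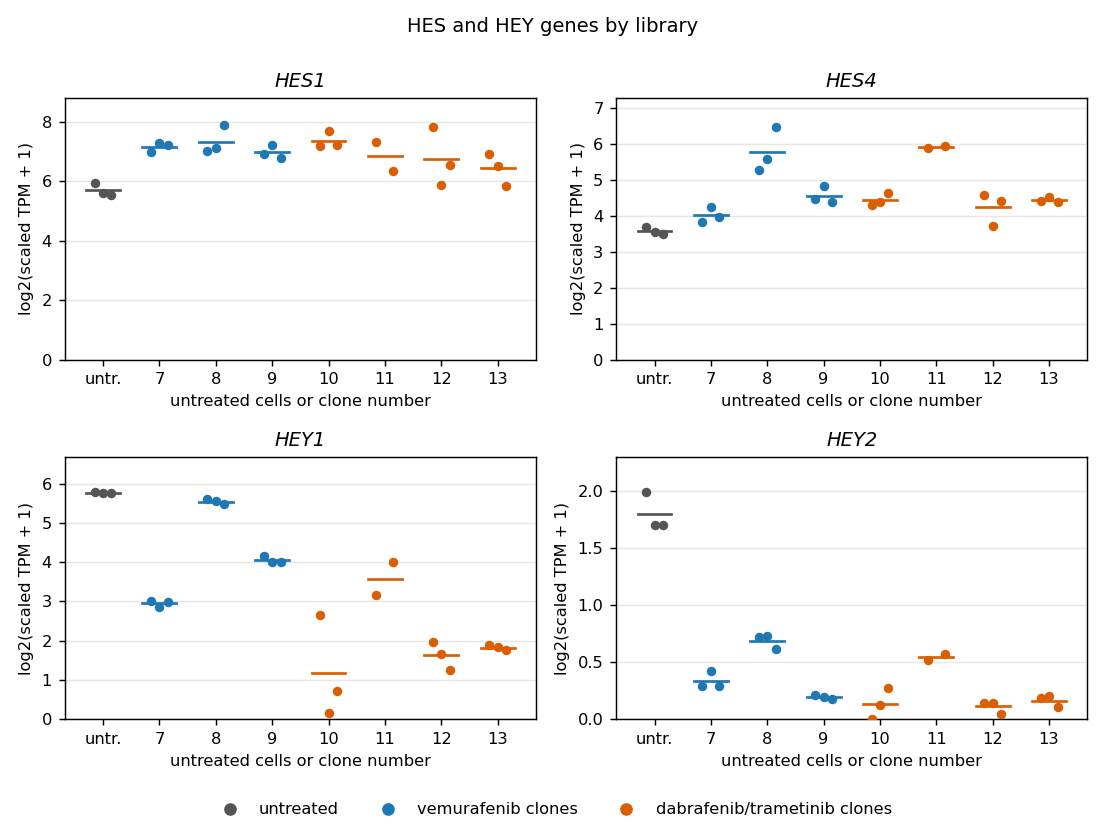
Level of HES1, HES4, HEY1 and HEY2 in each library (points) by group, as log2(scaled TPM + 1), with a line at the mean log2 value of the group. In scaled TPM, HES1 spread widely within clone 12, from 58.1 to 225, while HEY1 in clone 8 was 43.3 to 47.5 against 52.8 to 54.1 in untreated libraries.

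The summed TPM of HES1, HES4, HEY1 and HEY2 was shared about equally between HEY1 (45.5% ± 3.23, SD, n = 3) and HES1 (43.1% ± 3.04) in untreated cells. In the clones HES1 made up from 60.8% in clone 11 to 87.4% in clone 10. HEY1 made up 18.0% in clone 8, 9.72% in clone 9, 6.53% in clone 11 and 1.18% in clone 10. HES1 was thus the most abundant of these genes in each clone.

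The study's title asks about heterogeneity among resistant cells, and limma's F test asked whether the 7 clones had equal levels. It called 6 of the 10 members, where 25.3% of all genes tested were called: NOTCH1, NOTCH3, JAG1, DLL1, HES4 and HEY1. The range between the lowest and highest clone was 4.36 for HEY1 (adjusted p = 2.55e-07), 4.22 for NOTCH3 (adjusted p = 1.58e-07) and 3.11 for JAG1 (adjusted p = 1.49e-07). It was 2.10 for DLL1, 1.90 for HES4 and 1.62 for NOTCH1. In scaled TPM the highest clone mean was 36.0 times the lowest for NOTCH3, 22.7 times for HEY1, 14.1 times for DLL1 and 9.61 times for JAG1. With single libraries left out, a check chosen after the data were seen, the fold was 70.7 for NOTCH3 without clone 12 replicate 3 and 118 for HEY1 without clone 10 replicate 1, so these 2 sizes rest on the lowest clone. HES1 (range 0.93, adjusted p = 0.278), NOTCH2 (0.75, adjusted p = 0.238) and JAG2 (0.43, adjusted p = 0.638) were not called, nor was HEY2, whose range of 0.58 (adjusted p = 0.00123) was under the minimum of 1. HES1 was called without clone 12 replicate 1 (range 1.15, adjusted p = 0.029).

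Over the 21 pairs of clones the members gave 62 called differences of 210, or 29.5%, where 6.16% of the differences over all genes were called. NOTCH3 gave 15, HEY1 14, JAG1 11, HES4 10, DLL1 7 and NOTCH1 5. NOTCH2, JAG2, HES1 and HEY2 gave none. In order of level, NOTCH3 ran clone 11, 8, 9, 7, 13, 10, 12 and untreated, and among neighbours clone 11 differed from clone 8 (1.16) and clone 9 from clone 7 (1.38). JAG1 ran clone 11, 8, 9, 10, 13, 7, 12 and untreated. Clone 11 and clone 8 differed by 0.99, under the fold minimum, clone 8 differed from clone 9 (1.01), and clone 12 from untreated cells (1.54), with no other neighbours called. HES4 ran clone 11, 8, 9, 10, 13, 12, 7 and untreated, with a called step between clones 8 and 9 (1.22). HEY1 ran untreated, clone 8, 9, 11, 7, 13, 12 and 10, with a called step between clones 8 and 9 (1.48). HEY2 had its called step between untreated cells and clone 8 (1.11). No neighbours were called for NOTCH1, which ran clone 10, untreated, clone 13, 9, 11, 12, 8 and 7, or for DLL1, which ran clone 7, 12, 9, 8, 10, 13, 11 and untreated.

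Some members moved together over the libraries, described by Pearson's r of log2 values. NOTCH3 and JAG1 had r = 0.89 over 23 libraries and 0.93 over the 20 clone libraries. JAG1 and HES4 had 0.84 and 0.80, and NOTCH3 and HES4 had 0.76 and 0.71. Clones 11 and 8 were the highest for all 3 genes. HEY1 and HEY2 had 0.74 in both sets. Over the clone libraries alone HEY2 also moved with the genes above, at 0.78 with JAG1 and 0.75 with both NOTCH3 and HES4, and HEY1 and NOTCH3 had 0.75. Over all 23 libraries, with the untreated ones included, JAG1 and HEY2 had -0.43 and NOTCH3 and HEY1 had 0.36. JAG1 and DLL1 had 0.14 over all libraries and -0.52 over clone libraries, and JAG1 and HES1 had 0.46 and 0.02. Libraries of 1 clone share their source, so the number of independent points is nearer to the 8 groups.

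**Figure D4:**
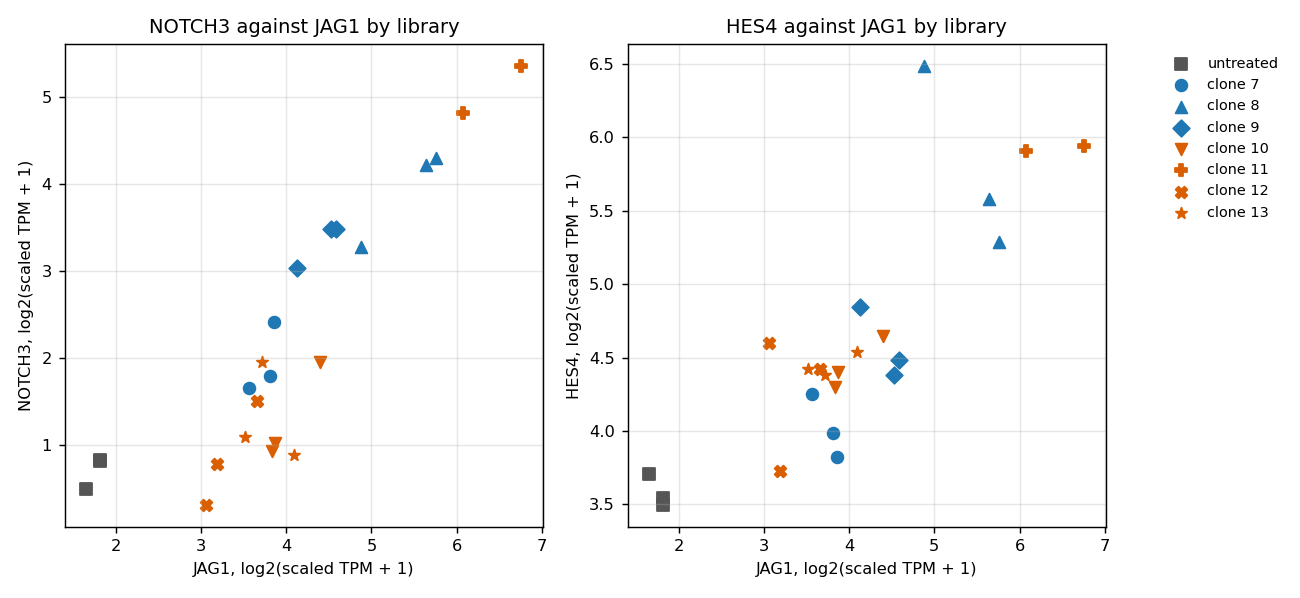
NOTCH3 (left) and HES4 (right) against JAG1 in log2(scaled TPM + 1), 1 point for each of 23 libraries, with the colour for the drug and the marker for the group. Clones 8 and 11 lie highest for all 3 genes in group mean, and untreated libraries lie lowest for JAG1.

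For each member called by the F test, the 3 genes with the highest r over 23 libraries were read out among the 11243 or 11244 other tested genes whose mean log2 value reached 2. For NOTCH3 they were ADAM19 (r = 0.94), MSRB3 (0.94) and ETV6 (0.93), and for JAG1 they were MYADM (0.96), SAMD9 (0.95) and PLCB3 (0.94). For HES4 they were ARPC2 (0.92), PPP1R14A (0.89) and ISG15 (0.88). HEY1 was most like NPDC1 (0.94), KAT2A (0.92) and ENOX1 (0.92), DLL1 most like MTSS1 (0.93), PLN (0.89) and TM4SF1 (0.89), and NOTCH1 most like PRKCE (0.92), KLHL29 (0.89) and CREB3L2 (0.88). The lists of the 6 members shared no gene. Over the 20 clone libraries alone these values lay between 0.81 and 0.96.

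The drug arms were compared on clone means, 3 vemurafenib clones against 4 dabrafenib/trametinib clones, because the clone is the unit of an arm. No member was called, where 2 of 15657 genes (0.0128%) were called and 2258 had an unadjusted p under 0.05 in limma. Of the members, HEY1 alone had an unadjusted p under 0.05: its log2 level averaged 4.19 in vemurafenib clones and 2.05 in dabrafenib/trametinib clones, a difference of 2.14 (SE 0.71, limma adjusted p = 0.268). The arms overlapped for HEY1, since clone 11 lay above clone 7. DLL1 differed by 0.81 (SE 0.39, adjusted p = 0.385) and NOTCH3 by 0.93 (SE 1.02, adjusted p = 0.695), and the arms overlapped for all 10 members. The highest and lowest clones of NOTCH3, clones 11 and 12, had received the same drugs.

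The other genes of the pathway were read from a list of 54, of which 45 passed the filter. For the mean of the clones 3 were called higher and 6 lower, with a median log2 fold change of -0.14, against 10.9% and 7.91% of all genes called. Among other receptors and ligands, DLL3 alone of 4 tested was called, at -1.34 (SE 0.14, limma adjusted p = 1.80e-07), from 12.7 TPM in untreated cells to means of 3.08 to 6.57 TPM in the clones. Of 4 tested enzymes that glycosylate the receptor, LFNG, the Fringe enzyme that changes which ligands a receptor responds to, was called higher in all 7 clones. It rose by 2.01 (SE 0.15, adjusted p = 5.54e-10), from 2.00 TPM to means of 5.70 TPM in clone 10 up to 29.2 TPM in clone 11. Clone 11 thus had the highest mean level of LFNG as well as of NOTCH3, JAG1 and HES4. Its difference from clone 8 was not called for JAG1 (0.99) or HES4 (0.14).

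Of 9 genes for receptor cleavage, the gamma-secretase subunits PSEN2 (-1.10, limma adjusted p = 8.29e-06) and APH1B (1.05, adjusted p = 1.69e-05) were called, in opposite directions. Of 3 tested ubiquitin ligases that act on the ligand, none was called, and MIB2, the one with the highest level, stood at -0.20 on the log2 scale (adjusted p = 0.318). Of 8 genes for inhibition and turnover, DTX4, a Deltex ubiquitin ligase, was called lower, by 2.39 (SE 0.13, adjusted p = 9.46e-12) and in all 7 clones. It went from 11.8 TPM in untreated cells to means of at most 2.02 TPM in the clones.

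In the nuclear complex, MAML3, a Mastermind coactivator, fell by 1.78 (SE 0.09, limma adjusted p = 3.98e-12) and KAT2B, a histone acetyltransferase, fell by 1.90 (SE 0.18, adjusted p = 2.30e-08), 2 of 8 genes tested. RBPJ, at 0.88 (SE 0.12, adjusted p = 3.09e-06), was under the fold minimum in the mean of the clones and was called higher in 4 of them, clone 9 (1.02), clone 10 (1.68), clone 12 (1.30) and clone 13 (1.29). It differed among clones, with 16.8 TPM in clone 8 and 70.4 TPM in clone 10 against 21.3 TPM in untreated cells (F test range 2.02, adjusted p = 6.53e-08). Its order was unlike that of JAG1, NOTCH3 and HES4, of which clone 8 held the second highest level. Of 7 corepressors, TLE4, a Groucho-family partner of HES proteins, rose by 3.75 (SE 0.22, adjusted p = 1.96e-11), from 0.210 TPM to means of 11.2 to 22.8 TPM, and it was called in all 7 clones. MAML3 and TLE4 passed the filter only through the group where they were high. TLE4 reached at most 0.252 TPM in an untreated library and MAML3 at most 0.375 TPM in a clone library. Of 2 other HES genes tested, HES6, a HES protein known to oppose HES1, fell by 2.93 (SE 0.17, adjusted p = 1.87e-11), from 53.1 TPM to means of 3.54 to 8.31 TPM. HES6 was listed with the target genes, but whether it responds to Notch was not tested. The targets HES5, HEYL and NRARP were too low to be tested, and no untested gene of the list exceeded 0.666 TPM in any library.

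**Figure D5:**
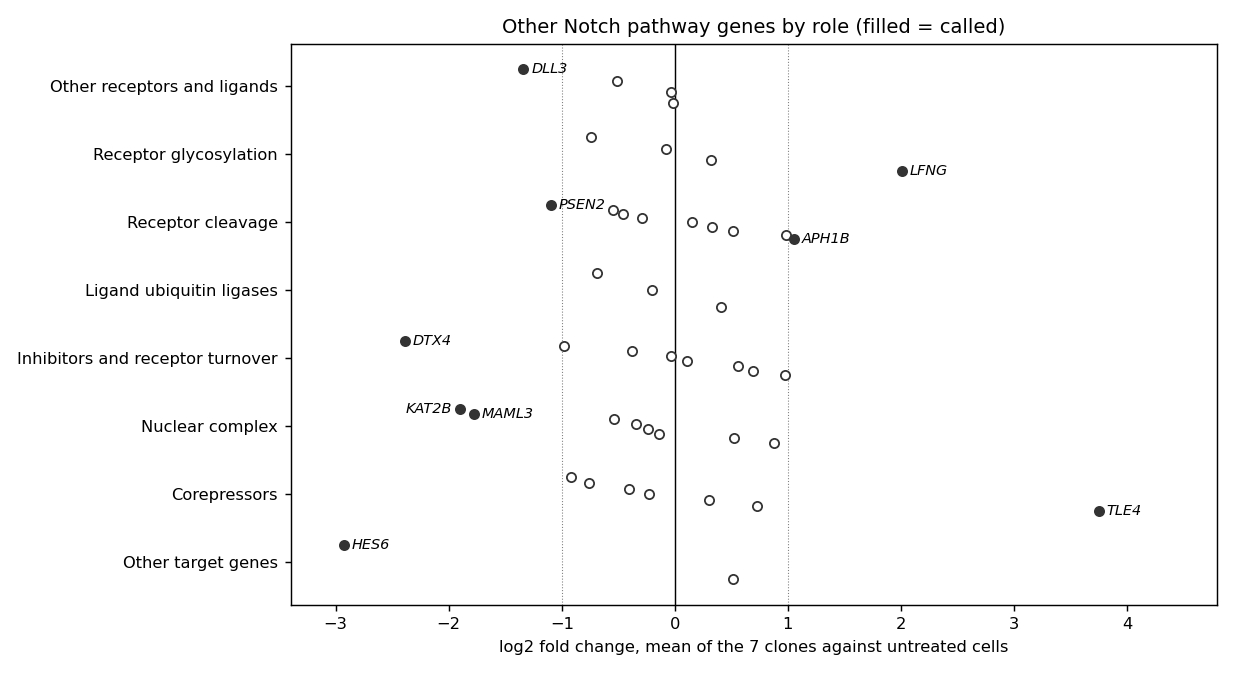
Log2 fold change from untreated cells to the mean of the 7 clones for the 45 tested pathway genes, on the log2(TPM + 1) scale, by role, with called genes filled and labelled. TLE4 (3.75) and HES6 (-2.93) lie farthest from 0, and most other genes lie inside the fold minimum of 1.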

How the data were processed

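Poly(A) RNA of 23 libraries was sequenced with paired ends. The deposited table holds 1 value per gene and library, read here as TPM because each column sums to the same fixed total, although the authors named it as counts. Kallisto and hg19 stand in the submitters' processing notes without a version, and the step to genes is not given in the sources used here. Errors are spreads between libraries, since TPM holds no depth. TPM values were scaled by a trimmed mean of log ratios (30% of ratios and 5% of levels trimmed) over 10822 genes and taken as log2(TPM + 1), which understates changes of low genes. The 15657 genes whose deposited TPM reached 1 in 2 or more libraries entered 1 limma fit of 8 groups (limma 3.58.1, R 4.3.3, trend), tested on simulated data first. The members, pathway lists, marker lists and rules were chosen with earlier results of these data known. All 10 members are named. Other pathway genes are named by role, up to 4 with the largest called change, or the one with the highest level where none was called. Promoter windows were matched by symbol. Alternatives changed the scaling, pseudocount, filter, variance model, libraries in the fit, a replicate block, and left out each library.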

Additional observations from a re-analysis of the deposited data

Results flagged for a closer look

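Clone 11 lay apart from the other 3 dabrafenib/trametinib clones in 3 of the 10 members. Its gap to the nearest clone, divided by the range of the 4 clone means on the log2 scale, was 0.894 for NOTCH3, 0.879 for HES4 and 0.883 for HEY2, each above Dixon's 95% critical value for 4 values. Chance alone flags about 1 group in 20, and these genes are not independent of each other. Clone 11 was the highest of the 4 in each case, and it is the clone with 2 libraries.

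The effect against untreated cells differed between clones, by the F test, for NOTCH1 (range of 1.62 on the log2 scale), NOTCH3 (4.22), JAG1 (3.11), DLL1 (2.10), HES4 (1.90) and HEY1 (4.36).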

How the results depend on the processing

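Each of 100 member values was recomputed under the alternatives, 32 in all including the 23 libraries left out in turn. Of 3160 recomputed values, 3125 stayed on their side of the threshold, 14 lost a call and 21 gained one. The sign changed in 11 of the 3125, all of them uncalled, and in 0 called values. Scaling mattered for the whole table: over all genes, the median change in the mean of the clones was -0.01 (log2) scaled and 0.14 as deposited. The members called in the mean of the clones numbered 8 with any library left out. Leaving out 1 library gave 8 called members in clones 7 and 8 each time, 7 to 8 in clones 9 and 11, 4 to 6 in clone 10, 6 to 7 in clone 12 and 3 to 5 in clone 13. Changed calls not given above included those of NOTCH1 in the mean of the clones (-1.17, called) and of the HEY2 range (1.99, called) with a pseudocount of 0.1. JAG2 in clone 10 was called with pseudocounts of 0.1 and 0.5, at -1.70 and -1.21. The 2 genes called higher in vemurafenib clones became 0 as deposited, with pseudocounts of 0.1 and 0.5 and with no filter, and 0 to 5 with 1 library left out; the cause was not tested. Over all genes and groups, deviations of same-numbered libraries had a median r of 0.01 (from -0.62 to 0.42, 28 of 77 pairs over 0.1). Replicate numbers were therefore not taken as pairs. Some values did follow the number in dabrafenib/trametinib clones. The melanocyte marker sum fell from replicate 1 to 3 in clone 10 (378, 118 and 73.75 TPM), clone 12 and clone 13, but rose from replicate 2 to 3 in clone 11. NOTCH3 was highest in replicate 3 of clones 10 to 13. Whether the number marks a batch in that arm was not tested. With the replicate block, all 90 member values kept their call, and member calls over the pairs of clones were 64 in place of 62. The depth of TPM values is unknown, so no counting error was given for low genes such as DLL1 and HEY2.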

Other observations

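Genes were also searched for deviations from their group means that followed those of HES1, over 23 libraries with 15 residual degrees of freedom. These genes were chosen after their values were seen, and r is a description. The highest were KLF6 (r = 0.94), IER2 (0.89), SRSF7 (0.88), PYGL (0.88) and ID3 (0.86). KLF6 and IER2 are immediate-early genes, whose RNA rises quickly after serum and other stimuli, and ID3 is a target of BMP signalling. IER2 measured 245, 62.7 and 57.0 TPM in clone 12, where HES1 measured 225, 58.1 and 92.3 TPM. In clone 11 it measured 204 and 97.2 TPM, where HES1 measured 160 and 79.5 TPM. The library highest in HES1 was the highest in IER2 in both clones. It was also the lowest-numbered library of each, replicate 1 of clone 12 and replicate 2 of clone 11. In clone 13 both genes fell from replicate 1 to 3, HES1 from 120.2 to 56.8 TPM and IER2 from 115.7 to 43.1 TPM. Clone 10 went another way, with both genes highest in replicate 2 (204 and 151 TPM). The part of the replicate number in these r values was not tested. Other immediate-early genes had lower r values, with 0.60 for FOS, 0.69 for EGR1, 0.70 for JUN and 0.76 for ATF3, and HES4 had 0.66.

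HES4 and ISG15, an interferon-induced ubiquitin-like gene, lie next to each other on chromosome 1, with the pseudogene RPL39P12 between them by order of start in RefSeq. Their log2 values had r = 0.96 over the 20 clone libraries and 0.88 over all 23. In clone 8, ISG15 measured 1117, 1346 and 2889 TPM in the libraries where HES4 measured 38.1, 46.8 and 88.6 TPM. The highest value of both genes came from clone 8 replicate 3, the library with the lowest scaling factor (0.743) and mitochondrial share (6.74%). The part of that library in the r values was not tested. Untreated libraries held 75.02 to 84.1 TPM of ISG15, and its log2 fold change for the mean of the clones was 3.18 (SE 0.19, limma adjusted p = 2.49e-11). Clones 8 and 11 held the highest level of both genes. Whether reads of one gene were assigned to the other was not tested.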
